A study of Homo sapiens with 8 samples.

Results

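The histone and tRNA gene window of the short arm of human chromosome 6 was taken as hg19 chromosome 6 from 26 to 29 Mb. Its members were the peaks that overlap that stretch in 6 deposited peak lists, 618 of 224694 peaks in all. MED1 contributed 90 and 204 peaks in replicates 1 and 2, NIPBL 69 and 59, and SMC1A 82 and 114. Within the window, the first 0.3 Mb from its left edge and the 0.2 Mb that begin 1.7 Mb from it are called the histone-dense intervals here. They cover 0.5 Mb and held 274 of the 618 peaks. They were set against the other 2.5 Mb of the window, and the window was set against the remaining 168 Mb of the chromosome. The choice of positions used no measured value, although results of these data were known when it was made.

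The peaks come from ChIP-seq. The assay pulls down crosslinked, sheared chromatin by an antibody to 1 protein and sequences the DNA that comes with it. All libraries were made from untreated GM12878, an established lymphoblastoid line derived from B lymphocytes. There were 4 groups of 2 libraries, namely MED1, NIPBL, SMC1A and whole cell extract. The whole cell extract libraries were pooled as the control of every list, so the 6 lists are not independent of each other, and their own signal was not analysed here. Nothing in the labels ties replicates to separate cultures, so p-values may measure technical spread.

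MED1 belongs to Mediator, a complex that passes signals from DNA-bound transcription factors to RNA polymerase II. NIPBL loads cohesin onto chromatin, and SMC1A is a core subunit of the cohesin ring that extrudes and holds DNA loops. Replication-dependent histone genes lie in clusters, have no introns, and are transcribed at high rates in S phase to package newly made DNA. Most of the human ones lie in this window, interleaved with tRNA genes that are read by RNA polymerase III. Between and beyond the histone genes lie butyrophilin, zinc finger and olfactory receptor genes.

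In the RefSeq annotation (GRCh38.p14, used only for names and order), 53 protein-coding histone genes lie between TRIM38 and ZNF311. These genes were taken as approximate ends of the window, and their hg19 positions were not checked. The histone genes are 6 H1, 11 H2A, 14 H2B, 10 H3 and 12 H4 genes. A run of 32, H1-1 to H4C8, lies between TRIM38 and the butyrophilin gene BTN3A2, where 32 of 33 protein-coding genes encode histones. A run of 5, H2BC11 to H2AC12, lies before PRSS16. A run of 16, H2BC13 to H2BC17, lies between ZNF184 and OR2B2 and makes up all protein-coding genes there. The same stretch from TRIM38 to ZNF311 holds 144 tRNA genes. No hg19 annotation or genome was used, so no peak is placed on a single gene or promoter, exon or intron below. For the same reason the edges of the histone-dense intervals were not checked against these runs. The rest of the window may therefore hold histone genes too, such as the run of 5 before PRSS16.

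To show what regulatory sequence such a stretch carries, the 120 bases upstream of the transcription start are given for the first gene of each histone family after TRIM38 that has an entry in the promoter table used, from RefSeq (GRCh38.p14, chromosome 6, strand of the gene). Capitals mark the TATA box motif TATAAA, the motif CCAAT known from many promoters, and the octamer motif ATTTGCAT, each searched on both strands.
H1-1: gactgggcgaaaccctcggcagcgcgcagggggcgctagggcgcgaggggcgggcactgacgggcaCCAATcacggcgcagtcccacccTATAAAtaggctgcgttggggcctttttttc
H2AC4: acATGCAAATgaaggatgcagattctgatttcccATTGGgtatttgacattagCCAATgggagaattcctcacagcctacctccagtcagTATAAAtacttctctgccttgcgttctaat
H2BC3: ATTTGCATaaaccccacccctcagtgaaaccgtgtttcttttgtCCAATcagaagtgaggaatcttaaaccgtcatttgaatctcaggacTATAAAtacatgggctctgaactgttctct
H3C1: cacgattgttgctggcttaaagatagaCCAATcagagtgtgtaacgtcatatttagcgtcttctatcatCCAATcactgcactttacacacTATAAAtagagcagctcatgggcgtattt
H4C2: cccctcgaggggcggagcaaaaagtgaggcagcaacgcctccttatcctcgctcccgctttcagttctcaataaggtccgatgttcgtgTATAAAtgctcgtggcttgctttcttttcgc
Promoters were matched for 47 of the 53 genes, giving 51 distinct start sites. CCAAT was present in 43 of the 51 upstream stretches (84.3%), against 20.4% of 34943 promoters of all genes. TATAAA was present in 28 (54.9%), against 5.64% of all promoters, and the octamer in 13 (25.5%), against 0.861%. The families differed in these letters: all 9 H2A and all 10 H3 stretches held CCAAT but 3 of 10 H4 stretches did, and 10 of the 13 octamers lay in H2B stretches. These are matches of letters and show no binding.

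**Figure D1:**
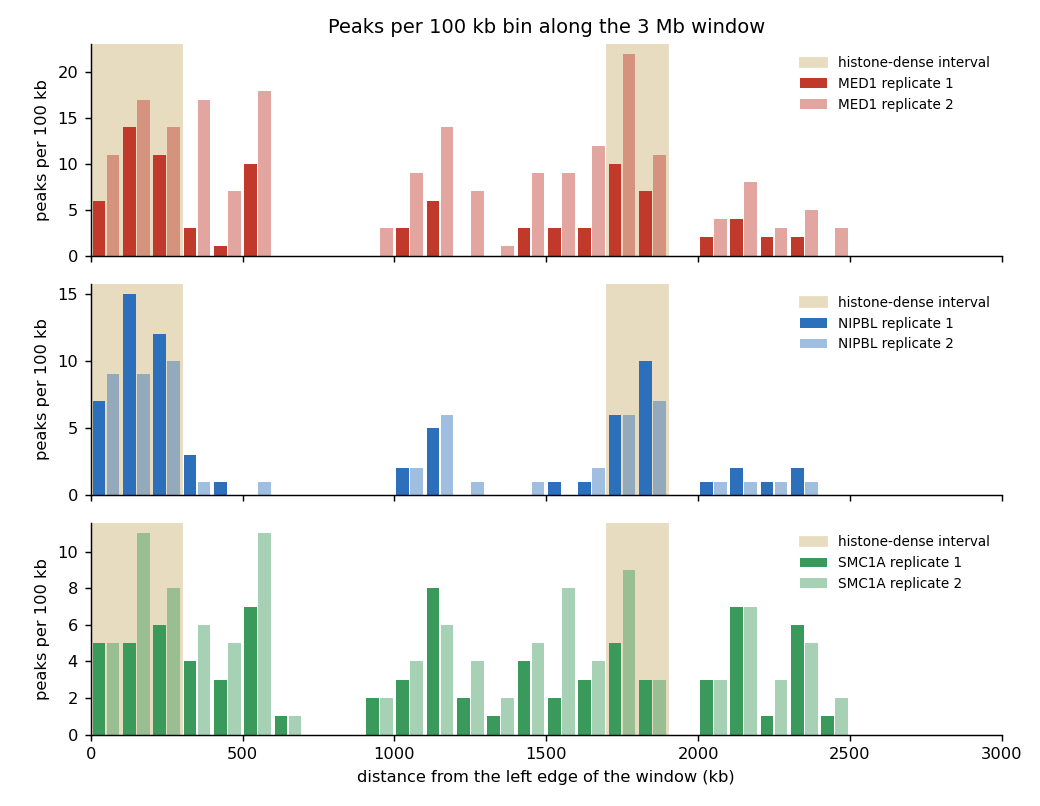
Number of peaks per 100 kb bin (vertical axis) against distance in kb from the left edge of the window, for both replicates of MED1, NIPBL and SMC1A; shading marks the histone-dense intervals. NIPBL peaks pile up in the shaded intervals with 6 to 15 peaks per bin in replicate 1, while SMC1A peaks are spread over most bins that hold any peak.

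All 3 factors had more peaks per Mb in the histone-dense intervals than in the rest of the window, and NIPBL showed the steepest contrast. NIPBL had 100 and 82.0 peaks per Mb in the dense intervals in replicates 1 and 2, against 7.60 and 7.20 in the rest of the window and 8.36 and 6.05 in the rest of chromosome 6. These densities count the full length of each stretch, including a part of the window, described below, in which no list has a row. Without stretches of over 1 Mb that hold no row, the rest of the window had 9.67 and 9.16 NIPBL peaks per Mb, against 8.73 and 6.32 in the rest of the chromosome. MED1 had 96.0 and 150 peaks per Mb in the dense intervals, against 16.8 and 51.6 in the rest of the window and 6.33 and 15.1 in the rest of the chromosome. SMC1A had 48.0 and 72.0 peaks per Mb in the dense intervals, against 23.2 and 31.2 in the rest of the window and 19.5 and 23.3 in the rest of the chromosome. The order of the factors changed with it: cohesin had the most peaks of the 3 along the rest of the chromosome and the fewest in the dense intervals, in both replicates.

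**Figure D2:**
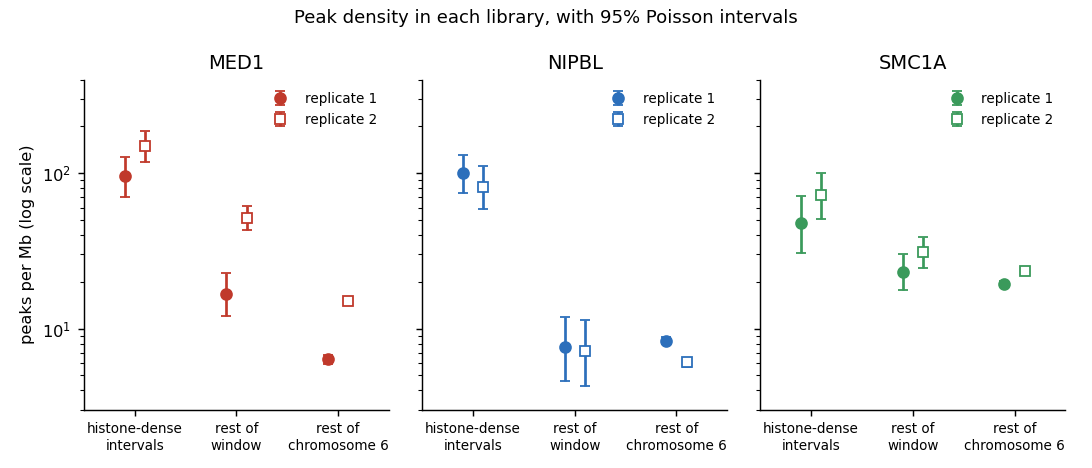
Peaks per Mb (log scale) in the histone-dense intervals, the rest of the window and the rest of chromosome 6; points are single libraries and bars 95% Poisson intervals, which cover counting error only. MED1 is highest in the dense intervals, intermediate in the rest of the window and lowest in the rest of the chromosome. NIPBL has 100 and 82.0 peaks per Mb in the dense intervals, against 7.60 and 7.20 in the rest of the window, and SMC1A differs least.

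Dense intervals held more peaks per Mb than the rest of the window in 6 of 6 libraries, by a mean of 2.26 ± 1.17 on the log2 scale (SD, n = 6; exact two-sided sign-flip permutation test, p = 0.031). The ratio was 13.2- and 11.4-fold for NIPBL, 5.71- and 2.91-fold for MED1 and 2.07- and 2.31-fold for SMC1A. The whole window exceeded the rest of the chromosome in 6 of 6 libraries by 1.46 ± 0.73 on the log2 scale (SD, n = 6; same exact permutation test, p = 0.031). Here MED1 led with 4.74- and 4.50-fold, followed by NIPBL with 2.75- and 3.25-fold and SMC1A with 1.40- and 1.63-fold. The p of 0.031 is the smallest that 6 libraries allow, and adjusted over the 10 tests of this kind it became 0.0781 for both, which does not pass 0.05. The libraries mix the factors, so the test asks only whether they share a direction. The SD includes differences between factors. Without the stretches that hold no row, an alternative chosen after seeing the data, the means were 1.91 for the dense intervals and 1.68 for the window, each with the same exact permutation p of 0.031. With the 15357 strongest peaks of every list, the window result no longer passed (1.27 on the log2 scale, exact permutation p = 0.0625).

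The differences between factors could not pass a test with 2 libraries each, since the smallest p of 4 libraries is 0.33. MED1 minus NIPBL in the log2 dense-to-rest ratio was -1.59, with both MED1 libraries below both NIPBL libraries. NIPBL minus SMC1A was 2.49. MED1 minus SMC1A was 0.90, and it was 0.41 without MED1 replicate 1 and 1.39 without MED1 replicate 2. For the window against the rest of the chromosome, MED1 minus NIPBL was 0.63, MED1 minus SMC1A 1.61 and NIPBL minus SMC1A 0.99. All 6 differences had p = 0.33 in an exact two-sided permutation test of the library labels, and 0.33 after adjustment over the 6.

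On a grid of 56 adjoining 3 Mb windows of chromosome 6, the histone and tRNA gene window held the most MED1 peaks in both replicates. Its 90 and 204 peaks stood against medians of 12 and 37.5 per window. It was 4th for NIPBL in both replicates and 11th and 10th for SMC1A. Among 100 kb bins, the 3 with the most peaks over all 6 lists held 71, 61 and 58 and were chr6:26100001-26200000, chr6:26200001-26300000 and chr6:27700001-27800000, all histone-dense. The 5 dense bins held 41 to 71 peaks each, and the 25 others 0 to 47. Of the other bins, 5 lie wholly in a stretch at the right edge where no list has a row. Of the remaining 20, 13 held no NIPBL region found in both replicates, and 3 held no SMC1A region. That stretch, the longest with no peak, ran from 28464248 to the right edge of the window, 536 kb, and belongs to a stretch of 4062 kb in which none of the 6 lists given here has a row, so binding there was not analysed here. A stretch of 316 kb, chr6:26608175-26924091, and one of 177 kb, chr6:27871025-28048133, also held no peak.

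Peaks were wider in the dense intervals than in the rest of the window for all 3 factors, and the size of the difference varied between libraries. Fold enrichment is the authors' ratio of ChIP signal at the summit to a local control estimate, and its percentile is counted within each library's whole list. MED1 peaks in the dense intervals had a median width of 1467 and 498 bp in replicates 1 and 2, against 303 and 420 bp in the rest of the window. NIPBL peaks were 348 and 381 bp wide, against 285 and 243 bp, and SMC1A peaks 363 and 374 bp, against 324 and 328 bp. In the rest of the chromosome the medians were 352 and 427 bp for MED1, 338 and 316 bp for NIPBL, and 348 and 356 bp for SMC1A. Against the rest of the window, dense intervals had the higher median in 6 of 6 libraries, by 0.64 ± 0.82 on the log2 scale (SD, n = 6; exact two-sided sign-flip permutation test, p = 0.031, adjusted p = 0.0781). Without MED1 replicate 1 the mean difference was 0.31, and it did not pass with equal list lengths (exact permutation p = 0.312) or with peaks of −log10 q of at least 5 (exact permutation p = 0.0938). For the window against the rest of the chromosome the mean difference in width was 0.00 (exact permutation p = 0.938), and with equal list lengths it was 0.20 (exact permutation p = 0.031).

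The median MED1 peak of the dense intervals stood at percentile 98.9 and 59.2 of fold enrichment in replicates 1 and 2, against 47.4 and 47.3 in the rest of the window. The dense peaks of replicate 1 thus reached into the very top of the list, while replicate 2, a list of 45046 peaks against 18131, added many weak peaks between the strong ones. NIPBL medians were at percentile 40.9 and 40.9 in the dense intervals, against 23.2 and 40.7 in the rest of the window. SMC1A medians were at 34.2 and 21.7 in the dense intervals, against 24.4 and 31.99. In the rest of the chromosome the medians were at 49.8 and 50.5 for MED1, 47.8 and 48.6 for NIPBL, and 45.0 and 46.3 for SMC1A. Dense medians of NIPBL and SMC1A thus lay below those of the rest of the chromosome in both replicates. Dense minus rest of the window averaged 13.5 ± 21.1 percentile points (SD, n = 6) and was positive in 5 of 6 libraries, with an exact two-sided sign-flip permutation p of 0.156. Without MED1 replicate 1 it was 5.89 points. For the window against the rest of the chromosome the mean was -8.87 ± 11.6 points (SD, n = 6; exact permutation p = 0.156), positive in both MED1 libraries and negative in the other 4.

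**Figure D3:**
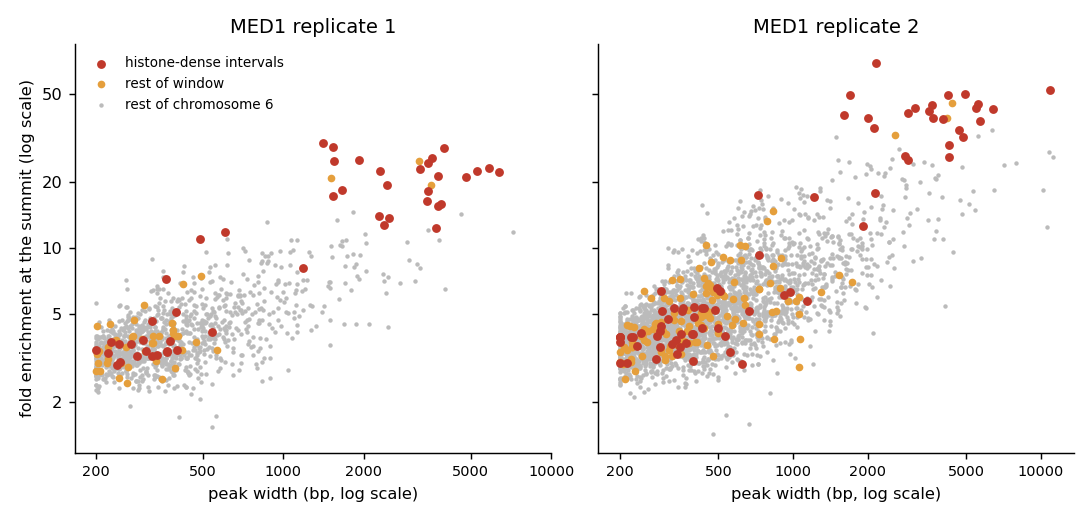
Fold enrichment at the summit (log scale) against peak width in bp (log scale) for every MED1 peak of chromosome 6, by replicate; colours give the part of the chromosome. Most of the points at the upper right, wider than 2000 bp and above 12-fold in replicate 1, are peaks of the histone-dense intervals.

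Many of the strongest MED1 peaks of the whole lists lay in the dense intervals. Of the 100 MED1 peaks with the highest fold enrichment of all chromosomes, which are 0.552% and 0.222% of the lists of replicates 1 and 2, 20 and 19 lay in the dense intervals. The window as a whole held 23 and 22 of them, and the rest of chromosome 6 held 0 and 2. The highest fold enrichment of the replicate 2 list, 69.2, was at chr6:27796999-27799155 in the second dense interval, and the highest of the dense intervals in replicate 1, 29.8, was 3rd in its list. For NIPBL the dense intervals held 0 and 1 of the 100 strongest peaks (0.471% and 0.658% of those lists, ties included), and for SMC1A 0 and 0 (0.177% and 0.147%). The strongest NIPBL peak of the window was 128th and 34th in its lists, and the strongest SMC1A peak of the dense intervals 3952nd and 2832nd.

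Control estimates differed between the stretches by less than the MED1 pileups of replicate 1 did, and in several lists they were higher in the dense intervals. The median control estimate solved from fold enrichment and p-value was 7.002 and 5.19 fragments at MED1 summits in the dense intervals, against 7.56 and 5.19 in the rest of the window and 7.75 and 5.19 in the rest of the chromosome. In the first dense interval alone it was 8.13 and 5.47. At NIPBL summits it was 7.42 and 7.18 in the dense intervals, against 7.60 and 6.15 in the rest of the window. In the rest of the chromosome it was 6.76 and 6.15. At SMC1A summits it was 6.58 and 6.97 in the dense intervals, against 5.17 and 5.11 in the rest of the window and 4.23 and 4.18 in the rest of the chromosome. The median ChIP pileup at MED1 summits was 106 and 33 fragments in the dense intervals, against 29 and 29 in the rest of the window and 32 and 29 in the rest of the chromosome. For NIPBL the median pileups were 30 and 29 fragments in the dense intervals, against 26 and 26 in the rest of the window. In the rest of the chromosome they were 29 and 28. For SMC1A they were 38 and 28, against 29.5 and 28 in the rest of the window and 35 and 33 in the rest of the chromosome. The highest MED1 pileups of the dense intervals were 261 and 366 fragments.

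Peaks of both replicates that overlap were merged into regions, and the regions found in both are used from here on. The window held 72 MED1 regions, 35 of them in the dense intervals, 41 NIPBL regions, 31 of them dense, and 73 SMC1A regions, 20 of them dense. MED1 regions of the dense intervals had a median width of 2900 bp, against 634 bp in the rest of the window and 782 bp in the rest of the chromosome. They covered 21.8% of the dense intervals, against 1.41% of the rest of the window and 0.574% of the rest of the chromosome. NIPBL regions covered 4.41%, against 0.202% and 0.278%, and SMC1A regions 1.92%, against 1.03% and 0.872%.

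MED1 regions wider than 2 kb, which are 8.24% of MED1 regions over chromosomes 1 to 22 and X, made up 23 of the 35 dense regions, 3 of the 37 in the rest of the window and 86 of the 874 in the rest of the chromosome. The 23 broad dense regions were 2009 to 10926 bp wide. Their fold enrichment was 8.15 to 28.6 in replicate 1 (median 21.0) and 17.8 to 69.2 in replicate 2 (median 38.8). The 86 broad regions elsewhere on the chromosome had medians of 6.78 and 14.3, so broad regions there were weaker. Their highest values, 14.6 and 34.1, lay below the medians of the dense ones.

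**Figure D4:**
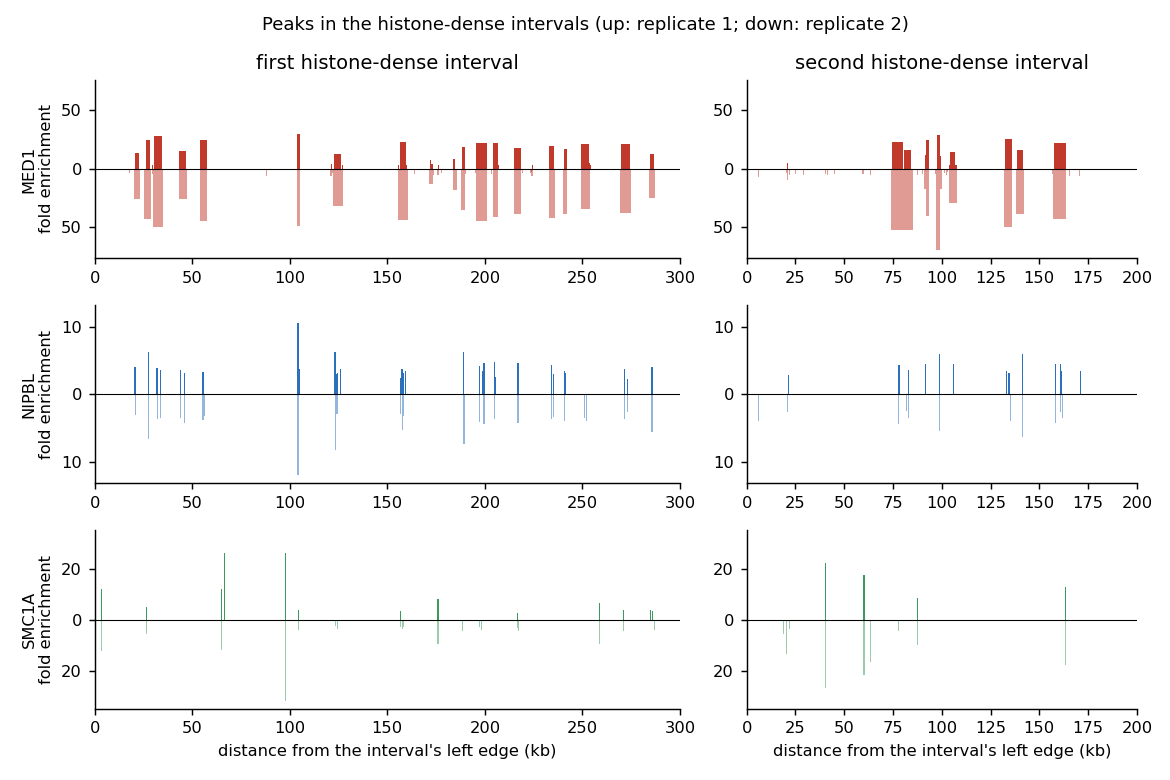
Peaks of the first (left) and second (right) histone-dense interval, with distance from the interval's left edge in kb on the horizontal axis and fold enrichment on the vertical one; bars have the width of the peak, replicate 1 upward and replicate 2 downward, and each row has its own scale. Broad MED1 peaks recur in both replicates with NIPBL peaks beneath them, and the tallest SMC1A peaks stand between them.

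The strongest MED1 region, chr6:27796999-27799155, was 2157 bp wide and had a fold enrichment of 28.6 and 69.2 in replicates 1 and 2. It held 1 NIPBL region, at 5.94 and 5.45, and no SMC1A peak. The next, chr6:26103696-26105398, was 1703 bp wide with 29.8 and 49.1. It held the strongest NIPBL region of the window, chr6:26103930-26105066, with 10.6 and 12.01, and a weak SMC1A region with 3.67 and 4.14. All 3 proteins thus met there, each in both replicates. Near the left end of the first dense interval, chr6:26029877-26034802 had MED1 at 28.3 and 49.7 over 4926 bp with 2 NIPBL regions and no SMC1A peak, and its neighbour chr6:26025524-26028644 had 25.1 and 43.0 over 3121 bp. The neighbour held a NIPBL region at 6.197 and 6.63 and an SMC1A region at 5.09 and 5.77. At chr6:26054007-26057671 MED1 reached 24.4 and 44.3 with 1 NIPBL region and no SMC1A peak. These MED1 regions overlap the largest NIPBL cluster of the window, 7 regions in chr6:26020419-26055992, in which neighbouring regions lie at most 9.86 kb apart.

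Further right in the first interval, chr6:26155330-26160785 had MED1 at 22.8 and 43.2 over 5456 bp, with 2 NIPBL regions of up to 3.81 and 5.34. It also held an SMC1A region of 3.40 and 2.97, and elsewhere in it SMC1A of up to 3.77 in replicate 2 only. The region chr6:26195461-26201056 had 22.2 and 44.9 over 5596 bp and 2 NIPBL regions of up to 4.61 and 4.41. Both lie in the longest run of MED1 regions of the window, 12 over 98.7 kb. The second largest NIPBL cluster, 5 regions in chr6:26188702-26217604, falls in the same run.

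In the second dense interval, chr6:27774124-27785049 was the widest MED1 region of the window at 10926 bp, with 22.97 and 52.2. It held 2 NIPBL regions of up to 4.37 in both replicates, and SMC1A only in replicate 2, at 4.36. The second widest, chr6:27857201-27863690, was 6490 bp wide with 22.05 and 42.7, and was the only broad region of this interval with an SMC1A region, of 12.6 and 17.7. At chr6:27831831-27836052 MED1 had 25.5 and 49.3 with 1 NIPBL region, and at chr6:27792063-27793671 it had 24.7 and 39.9 over 1609 bp with no NIPBL or SMC1A peak. Strong MED1 was therefore found there without a NIPBL call. The third widest, chr6:26269035-26274732 in the first interval, was 5698 bp wide with 21.0 and 37.6. The 25 dense MED1 regions not named by their strength had fold enrichments of 3.26 to 22.2 in replicate 1 and 4.01 to 42.7 in replicate 2.

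Besides the strongest one, 5 NIPBL regions of the dense intervals passed 5-fold in both replicates: chr6:26122920-26123801 with 6.201 and 8.21, chr6:26188702-26189563 with 6.197 and 7.39, chr6:26027231-26027714 with 6.197 and 6.63, chr6:27841222-27841555 with 5.99 and 6.39, and chr6:27798518-27798998 with 5.94 and 5.45. Each lay in a MED1 region of at least 12.3-fold in replicate 1. The remaining 4 of the 10 strongest were chr6:26285283-26286147, chr6:26199000-26199925, chr6:26157180-26158609 and chr6:26216381-26217604, with 3.81 to 4.62 in replicate 1 and 4.26 to 5.64 in replicate 2. The 21 others had medians of 3.62 and 3.63. All 31 dense NIPBL regions together had medians of 4.01 and 3.92, against 4.25 and 4.17 in the rest of the chromosome. Their median percentiles within the NIPBL lists were 55.1 and 43.9, while dense MED1 regions stood at 99.6 and 99.8 of theirs. NIPBL was thus called many times at ordinary strength for its lists, and MED1 near the top of its own.

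NIPBL summits often lay off the MED1 summit. Of the NIPBL peaks on a MED1 peak of the same replicate number, the nearest MED1 summit was a median of 519 and 162 bp away in the dense intervals, against 68 and 101 bp in the rest of the window and 56 and 57 bp in the rest of the chromosome. Within 200 bp lay 45.8% and 53.7% of them in the dense intervals, against 84.4% and 79.2% in the rest of the chromosome. MED1 peaks are wider there, and a NIPBL peak can lie farther from a summit within a wide peak. The 23 broad MED1 regions of the dense intervals held 30 NIPBL regions, at most 2 each, and 21 of the 23 held at least 1.

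Every NIPBL region of the window overlapped a MED1 region, 31 of 31 in the dense intervals (Clopper-Pearson 95% interval 88.8% to 100%) and 10 of 10 in the rest of the window (69.2% to 100%). In the rest of the chromosome 69.6% did (66.2% to 72.7%), and over all chromosomes used 70.2%. With SMC1A the direction was the opposite. In the dense intervals 5 of 31 NIPBL regions overlapped an SMC1A region, 16.1% (5.45% to 33.7%), against 4 of 10 in the rest of the window and 68.4% in the rest of the chromosome (65.1% to 71.6%), and 62.4% over all chromosomes. Counting SMC1A regions seen in a single replicate as well, 13 of the 31 overlapped SMC1A, 41.9%. In the rest of the chromosome that share was 86.0%. Counted in the same way, 94.7% of NIPBL regions in the rest of the chromosome overlapped MED1, much closer to the 100% of the window. The contrast with MED1 thus depends on asking for MED1 in both replicates. The 95% intervals cover counting error only and neighbouring regions are not independent.

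**Figure D5:**
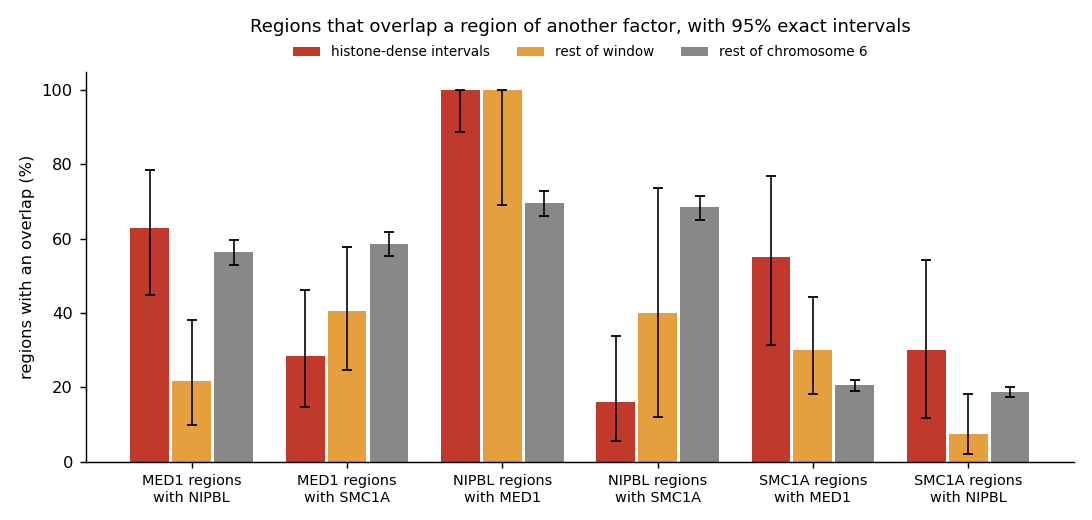
Share of regions (%) that overlap a region of another factor by at least 1 bp, in the histone-dense intervals, the rest of the window and the rest of chromosome 6; bars are shares and whiskers exact 95% intervals. All NIPBL regions of the window overlap MED1, and their share with SMC1A, 16.1% in the dense intervals, is below the 68.4% of the rest of the chromosome.

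Of MED1 regions, 22 of 35 in the dense intervals overlapped NIPBL, 62.9% (44.9% to 78.5%), against 8 of 37 in the rest of the window, 21.6% (9.83% to 38.2%), and 56.4% in the rest of the chromosome. The share over all chromosomes was 49.3%. The 22 with NIPBL had median fold enrichments of 21.7 and 41.3 and a median width of 3852 bp, and the 13 without 5.11 and 9.34 and 974 bp. With SMC1A, 10 of 35 dense MED1 regions overlapped, 28.6% (14.6% to 46.3%), against 15 of 37 in the rest of the window, 40.5% (24.8% to 57.9%), 58.6% in the rest of the chromosome (55.2% to 61.9%) and 52.2% over all chromosomes. Counting SMC1A regions seen in a single replicate as well, 18 of the 35 dense MED1 regions overlapped SMC1A, 51.4%. That share was then 67.6% in the rest of the window and 78.6% in the rest of the chromosome, so the gap was smaller. With SMC1A asked for in both replicates, the gap was plainest among regions wider than 2 kb. Of the 23 broad dense MED1 regions 7 held SMC1A, 30.4% (13.2% to 52.9%), against 78 of 86 broad ones in the rest of the chromosome, 90.7% (82.5% to 95.9%). NIPBL was in 91.3% of the broad dense regions (72.0% to 98.9%), against 82.6% elsewhere on the chromosome (72.9% to 89.9%).

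SMC1A regions of the dense intervals overlapped MED1 in 11 of 20 cases, 55.0% (31.5% to 76.9%), against 30.2% in the rest of the window (18.3% to 44.3%), 20.5% in the rest of the chromosome and 17.5% over all chromosomes. Counting MED1 regions seen in a single replicate as well, the share was 80.0% in the dense intervals. It was then 73.6% in the rest of the window and 33.5% in the rest of the chromosome. Dense SMC1A regions overlapped NIPBL in 6 of 20, 30.0% (11.9% to 54.3%), against 7.55% in the rest of the window (2.09% to 18.2%), 18.8% in the rest of the chromosome and 14.3% over all chromosomes. All 6 lay in the first dense interval. The strength of cohesin differed with MED1. The 11 dense SMC1A regions with MED1 had medians of 3.91 and 4.27 in replicates 1 and 2, and the 9 without had 12.1 and 13.4. The same order held in the rest of the chromosome, with 4.32 and 5.07 at SMC1A regions with MED1, and 10.6 and 12.1 at those without, so it is not particular to the histone genes.

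The 5 strongest SMC1A regions of the window had no MED1 or NIPBL region. Most SMC1A regions had neither, 46 of 73 in the window and 2186 of 2927 in the rest of the chromosome. The strongest, chr6:27576757-27577606 between the dense intervals, had 38.4 and 37.4 and not even a single-replicate peak of the other proteins. The second, chr6:26595956-26596442, had 31.3 and 35.3, with MED1 at 6.996 in replicate 2 only. The third, chr6:26097359-26098058, lies in the first dense interval with 26.2 and 31.8, and 5.87 kb from the strongest NIPBL region of the window. The others were chr6:26341762-26342895, with 23.3 and 33.3, and chr6:28323542-28324308, with 26.1 and 28.0. The first of them had NIPBL at 4.21 in replicate 1 only and MED1 at 4.52 in replicate 2 only, and the second NIPBL at 3.53 and MED1 at 5.24 in the same replicates. In the rest of the window the list of the strongest went on with chr6:27486533-27487593, at 24.6 and 26.34, and chr6:27046362-27047063, at 22.8 and 24.4. The 47 other SMC1A regions there ranged from 2.81 to 20.9 in replicate 1 and from 2.14 to 26.8 in replicate 2.

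In the window outside the dense intervals, strong broad MED1 occurred in a single place. Whether that place holds histone genes, such as the run of 5 before PRSS16, was not checked. The 3 MED1 regions of the rest of the window that were wider than 2 kb were also its 3 strongest, and all lay within chr6:27098513-27116564. They were chr6:27112190-27116564, with 24.7 and 45.3 over 4375 bp, chr6:27098513-27103260, with 19.2 and 38.7 over 4748 bp, and chr6:27105759-27108346, with 20.8 and 32.3 over 2588 bp. Their values lay within the range of the broad regions of the dense intervals. They held 5 of the 10 NIPBL regions of the rest of the window, which form the third NIPBL cluster, chr6:27099547-27115116, and no SMC1A region. The strongest of these NIPBL regions, chr6:27106853-27107636, had 4.23 and 5.04. The other 3 named ones, chr6:27100808-27101247, chr6:27113257-27114108 and chr6:27114793-27115116, had 3.05 to 4.02 in replicate 1 and 3.001 to 4.05 in replicate 2.

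The remaining regions of the rest of the window were narrow. All 3 proteins met at 4 of its MED1 regions, where MED1 was weaker than in any broad region of the window. Those among its 6 strongest MED1 regions are given here. At chr6:28048134-28048961 MED1 had 7.44 and 14.7, NIPBL 5.62 and 7.19 and SMC1A 5.13 and 3.85. At chr6:28104347-28105131 MED1 had 6.87 and 13.2, NIPBL 2.86 and 3.81 and SMC1A 4.72 and 5.89. At chr6:26358667-26359279 MED1 had 4.70 and 10.3, NIPBL 6.19 and 5.59 and SMC1A 2.81 and 5.21. The 4 NIPBL regions with SMC1A in the rest of the window all lay outside the broad MED1 group. The 31 other MED1 regions had medians of 3.57 and 6.33.

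Counted peak by peak in each library, sharing with a region of any other factor was more frequent in the dense intervals than in the rest of the window. MED1 and NIPBL regions also covered more of the dense intervals, 21.8% and 4.41%, against 1.41% and 0.202% of the rest of the window. Where partners cover more sequence an overlap is likelier, and the part of this in the difference was not tested. SMC1A peaks shared in 62.5% and 66.7% of cases in replicates 1 and 2, against 31.0% and 30.8% in the rest of the window (21.3% and 23% over all chromosomes). NIPBL peaks shared in 96.0% and 100% of cases, against 94.7% and 88.9% (71.8% and 80.5% over all chromosomes). MED1 peaks shared in 52.1% and 38.7%, against 45.2% and 34.9% (62.2% and 41.2% over all chromosomes). The difference averaged 15.1 ± 14.9 percentage points (SD, n = 6) and was positive in 6 of 6 libraries, with an exact two-sided sign-flip permutation p of 0.031 and an adjusted p of 0.0781. It was largest for SMC1A. With regions seen in either replicate as partners it was 2.93 points (exact permutation p = 0.375), and without SMC1A replicate 1 or without MED1 replicate 1 it was 7.27 and 7.05 points. It also missed the threshold with equal list lengths (exact permutation p = 0.125) and with −log10 q of at least 5 (exact permutation p = 0.0625).

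For the window against the rest of the chromosome the sharing of peaks went in opposite directions. NIPBL peaks shared in 95.7% and 96.6% of cases in the window, against 73.7% and 83.1% in the rest of the chromosome, and SMC1A peaks in 40.2% and 42.1%, against 25.8% and 26.7%. MED1 peaks shared in 48.9% and 36.3%, against 67.5% and 45.2%. The mean over libraries was 6.30 ± 16.1 points (SD, n = 6; exact permutation p = 0.344), and it was 2.29 points without SMC1A replicate 1 and 15.6 points without MED1 replicate 1.

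Recurrence between replicates was not shown to differ. Of NIPBL peaks in the dense intervals, 70.0% and 82.9% were found in the other replicate, against 52.6% and 55.6% in the rest of the window (55.6% and 79.3% over all chromosomes). For MED1 it was 100% and 48.0%, against 100% and 29.5% (99% and 33.5% over all chromosomes), and for SMC1A 83.3% and 55.6%, against 93.1% and 67.9% (92% and 75.6% over all chromosomes). NIPBL thus recurred more in the dense intervals and SMC1A less, both in 2 of 2 libraries. The mean difference was 6.85 ± 16.5 points (SD, n = 6; exact two-sided sign-flip permutation p = 0.375). For the window against the rest of the chromosome it was -1.78 ± 6.52 points (SD, n = 6; exact permutation p = 0.625).

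The dense intervals were not alike in every respect. The first, of 0.3 Mb, held 24 NIPBL, 23 MED1 and 14 SMC1A regions, and the second, of 0.2 Mb, 7 NIPBL, 12 MED1 and 6 SMC1A regions. Per Mb this was 80.0 NIPBL regions in the first and 35.0 in the second, while MED1 had 76.7 and 60.0. NIPBL overlapped 17 of the 23 MED1 regions of the first interval and 5 of the 12 of the second, and a further 4 of the second had NIPBL in a single replicate. SMC1A regions of the first interval had medians of 4.51 and 5.02, and those of the second 12.1 and 17.1. With a single stretch of each kind, no test between them was made.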

How the data were processed

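ChIP-seq peak lists of GM12878 cells were analysed, with 2 libraries each for MED1, NIPBL and SMC1A. Tools named in the submitters' processing notes are Trimmomatic 0.33, BWA 0.7.12 and MACS2 2.1.0, with hg19 as the build. Settings are not stated there. Per the labels, each ChIP library was called alone against both whole cell extracts pooled. Fold enrichment, as deposited, is a linear ratio at the summit. Its evidence stands in the −log10 p and −log10 q the authors deposited, and the smallest −log10 q was 1.302. The deposited score followed −log10 q and was not used. Lists held 15357 to 68228 peaks on chromosomes 1 to 22 and X. Files hold no read totals, so depth is unknown beyond the pileups.

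Peaks were assigned to the window by overlap and to the histone-dense intervals by summit, and regions to those intervals by midpoint. Fragment pileup and control estimate at a summit were solved from fold enrichment and p-value (tolerance 0.01), and all chromosome 6 peaks had a solution. Regions are merges of overlapping peaks of both replicates, with at least 1 bp counting as overlap. The 10 comparisons between stretches used exact two-sided sign-flip permutation tests over the 6 libraries, called at p under 0.05, and the 6 between factors exact permutations of labels, each family with Benjamini-Hochberg adjustment. Neighbouring peaks are not independent and were never the unit of a test. Shares have Clopper-Pearson 95% intervals. The steps were tested on simulated data. Python 3.11.15, NumPy 2.4.6, pandas 2.3.3, SciPy 1.17.1 and matplotlib 3.10.9 were used.

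Named regions followed a rule: the 10 strongest MED1 and NIPBL regions of the dense intervals by mean percentile of fold enrichment over replicates, the 6 strongest of each factor in the rest of the window, the 3 widest MED1 and 5 strongest SMC1A regions of the window, and the 3 NIPBL clusters with most regions. The members, lists and rules were chosen with earlier results of these data known. The width of 2 kb, the top 100 peaks, the grid of 3 Mb windows, the summit distances and the motifs were chosen after values had been seen. Alternatives covered list length, q-value, partner regions, interval edges, flanks and each library left out.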

Additional observations from a re-analysis of the deposited data

Results flagged for a closer look

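In these results both libraries of one factor moved one way and both of another the opposite way under the same contrast. None of these differences was tested, and with 2 libraries each none could pass a test. For the window against the rest of chromosome 6, the change in median percentile of fold enrichment was 14.2 points higher for MED1 than for NIPBL and 25.5 points higher for MED1 than for SMC1A. The change in the share of peaks with another factor was lower for MED1, with -31.5 percentage points for MED1 minus NIPBL and -28.7 for MED1 minus SMC1A. The change in median width was 0.14 higher on the log2 scale for MED1 than for SMC1A. The change in the share of peaks found in the other replicate was 7.67 points higher for MED1 than for SMC1A. For the histone-dense intervals against the rest of the window, the change in that share was 33.5 points higher for NIPBL than for SMC1A.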

How the results depend on the processing

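The sign of the mean difference in density, width and sharing between dense intervals and the rest of the window held under every alternative run. For width and sharing it did not hold in every library under each of them. Leaving out each library in turn cannot pass 0.05, since 5 libraries allow no p below 0.0625. Without SMC1A replicate 1, dense sharing lay well above that limit (exact permutation p = 0.5). The means then ranged from 1.305 to 1.66 for window density, 1.96 to 2.498 for dense density, 0.31 to 0.73 for dense width and 7.05 to 17.9 points for dense sharing. They ranged from 5.89 to 18.2 points for dense strength, -11.98 to -6.23 points for window strength and 2.29 to 15.6 points for window sharing, and from -0.027 to 0.013 for window width, -3.24 to 0.59 points for window recurrence and -0.91 to 15.8 points for dense recurrence, whose signs turned. With the 15357 strongest peaks per list, window density was 1.27, dense width 0.74 and dense sharing 16.5 points, none past the threshold, while window width turned to 0.20, now past it (exact permutation p = 0.031), and window strength to 5.99 points. With −log10 q of at least 5, dense width was 0.71 and dense sharing 19.5 points, no longer called, and window width turned to 0.019. Window width was 0.028 against flanks of 3 Mb on both sides and against the left flank, an alternative chosen after seeing the data. The right flank holds no row, so against both flanks window density was 2.48 by construction, and against the left one 1.48. With regions of either replicate as partners, dense sharing was 2.93 points and not called.

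Shares over the window moved with the partner set. With regions of either replicate, 42.5% of NIPBL regions overlapped SMC1A, 23.3% of MED1 regions NIPBL, 28.7% of SMC1A regions NIPBL and 78.7% of SMC1A regions MED1. With −log10 q of at least 5, NIPBL with SMC1A was 7.69% and SMC1A with NIPBL 3.51%. With a library left out, NIPBL with MED1 was 89.9% to 100%, NIPBL with SMC1A 18.6% to 41.5%, MED1 with NIPBL 14.7% to 50.0%, MED1 with SMC1A 27.5% to 55.6%, SMC1A with NIPBL 13.7% to 23.3% and SMC1A with MED1 35.6% to 75.3%. The cause was not tested.

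With the replicate number as a block, the 6 differences between factors kept their values, such as 0.63 for MED1 minus NIPBL in window density, with an exact permutation p of 0.5, the smallest that pairs allow. Nothing in the labels pairs the numbers. Ratios of replicate 1 to replicate 2 peak counts in bins of 10 Mb correlated at -0.11 between MED1 and NIPBL, -0.13 between MED1 and SMC1A and 0.19 between NIPBL and SMC1A, a description across bins. A replicate block with crossed numbers called 0 of 4 differences with MED1. Weak peaks below the lowest called pileups, 8 to 20 fragments over these stretches, could be missed.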
